A study of Mus musculus with 6 samples.

Results

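The genes described here encode 6 S100 proteins (S100a4, S100a6, S100a8, S100a9, S100a10 and S100a11) and 4 annexins (Anxa1, Anxa2, Anxa3 and Anxa5). They were taken as the probe sets named by 1 of these symbols alone, with the probe set of the highest mean over all arrays where a symbol had several. All 10 genes were measured, among 19938 genes in all. They were read on 6 expression arrays of macrophages sorted from regenerating muscle of 3 mice. The mice were of the strain B6.129P2-Lyzstm1(cre)Ifo/J, in which Cre recombinase sits in a lysozyme gene that is active in myeloid cells. Both groups carried this allele, and neither age nor sex is given in these sources. The tibialis anterior muscle was injured with cardiotoxin, a snake venom toxin, and the cells were taken 2 days later. From the CD45-positive cells of each mouse 2 subsets were sorted and put on 1 array each, one Ly6C+ F4/80low and the other Ly6C- F4/80high, so that 3 arrays stand against 3.

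S100 proteins are small calcium-binding proteins that mostly work as dimers. On binding calcium they expose a surface that grips partner proteins inside the cell, and several are released from damaged or activated myeloid cells and act on receptors of other cells. Annexins bind phosphatidylserine and other acidic lipids when calcium is present, and take part in membrane repair, vesicle traffic and the ending of inflammation. The families meet in shared complexes: S100A10 pairs with annexin A2, and S100A11 binds annexin A1. In injured muscle these proteins are known from infiltrating myeloid cells, from fibroblasts and from the fibres under repair.

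The arrays followed their labels. Ly6c1 and Ly6c2, genes of the Ly6C antigen, share 2 probe sets, which were 10.5-fold and 9.08-fold lower in Ly6C- F4/80high cells, whereas Adgre1, which encodes F4/80, was higher by 0.73 on the log2 scale. Of 10 macrophage markers 9 were measured, Cd68 and Csf1r among them, and all 9 lay above background on every array. The background level, 5.43, is the 95th percentile over the means of 1205 olfactory and vomeronasal receptor probe sets. Differences are in log2 units with their standard error, and are positive where Ly6C- F4/80high cells were higher. A gene was called at an adjusted p under 0.05 from limma over all genes. In sorted cells measured in bulk, fewer cells that express a gene and less RNA per cell cannot be told apart.

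The S100 genes and the annexins moved apart. Of the 6 S100 genes 5 were called lower in the Ly6C- F4/80high cells, S100a4, S100a6, S100a9, S100a10 and S100a11, where 14.3% of all genes were called lower, and S100a8 was not called. Of the 4 annexins Anxa1, Anxa3 and Anxa5 were called higher, where 19.5% of all genes were called higher, and Anxa2 was not called. The median difference was -0.36 over the 6 S100 genes and 0.56 over the 4 annexins, against -0.06 over all genes. In 8 of the 10 genes no array of one subset reached into the range of the other, which held for 48.1% of all genes. The largest difference among the 10, that of Anxa3, stayed under 2-fold, whereas 1.91% of all genes were called at least 2-fold higher and 1.02% at least 2-fold lower.

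**Figure D1:**
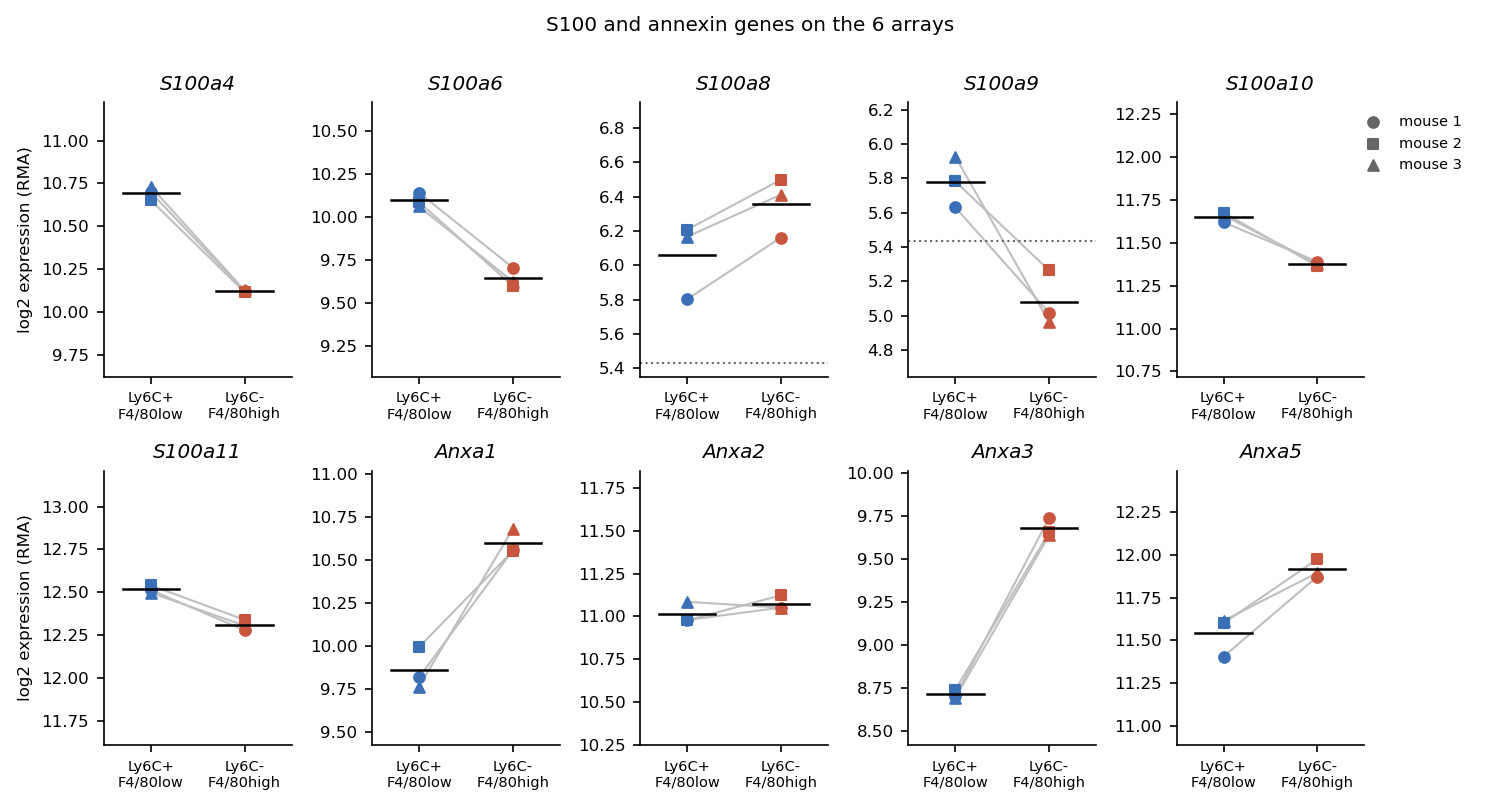
Log2 expression of the 10 genes on each array, Ly6C+ F4/80low in blue and Ly6C- F4/80high in red, with a marker shape for each mouse, a grey line joining the arrays of a mouse and a black bar at the subset mean. The panels have different positions but the same height on the log2 axis, and the dotted line is the background of 5.43. The arrays of the subsets overlap in the panels of S100a8 and Anxa2 and in no other panel.

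S100a4 and S100a6 lie close together in the chromosomal cluster of S100 genes, and the sequence before their starts is shown because both were lower by a similar amount. S100a8 and S100a9, next to each other at the end of that cluster, are shown because their values went apart. The 250 bases before the RefSeq start of each gene (GRCm38.p6, 5′ to 3′ on the gene's strand) are in lower case. Capitals mark matches, on either strand, to 4 motifs: TTNNGNAA of C/EBP factors, GAGGAA of PU.1, TGANTCA of AP-1 and the TATA box TATAAA. The windows are chr3:90603520-90603769 on the plus strand for S100a4, chr3:90612644-90612893 plus for S100a6, chr3:90668821-90669070 plus for S100a8 and chr3:90695722-90695971 minus for S100a9.
S100a4: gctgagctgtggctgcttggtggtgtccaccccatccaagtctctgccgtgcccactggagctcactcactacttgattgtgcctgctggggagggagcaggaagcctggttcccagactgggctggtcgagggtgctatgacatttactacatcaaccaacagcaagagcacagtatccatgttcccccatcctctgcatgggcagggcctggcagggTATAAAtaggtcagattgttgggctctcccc
S100a6: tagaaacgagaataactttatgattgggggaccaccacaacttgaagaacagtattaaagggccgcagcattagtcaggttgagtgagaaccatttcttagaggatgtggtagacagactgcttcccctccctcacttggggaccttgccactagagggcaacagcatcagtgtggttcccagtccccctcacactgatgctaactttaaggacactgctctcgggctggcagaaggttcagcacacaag
S100a8: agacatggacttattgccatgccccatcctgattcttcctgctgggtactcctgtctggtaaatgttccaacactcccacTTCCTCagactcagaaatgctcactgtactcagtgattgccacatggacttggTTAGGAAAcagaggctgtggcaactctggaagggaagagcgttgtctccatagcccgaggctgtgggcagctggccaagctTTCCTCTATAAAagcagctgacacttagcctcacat
S100a9: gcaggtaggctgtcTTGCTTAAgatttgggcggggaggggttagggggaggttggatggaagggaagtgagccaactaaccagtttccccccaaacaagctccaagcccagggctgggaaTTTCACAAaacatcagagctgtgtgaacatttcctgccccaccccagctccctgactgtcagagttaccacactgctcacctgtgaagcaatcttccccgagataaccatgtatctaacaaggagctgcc

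The S100a8 window holds 1 C/EBP match and 2 PU.1 matches, and a TATA box that begins 30 bases before the start, directly after the second PU.1 match. The S100a9 window holds 2 C/EBP matches, beginning 236 and 130 bases before the start. The S100a4 window holds a TATA box 31 bases before the start, and the S100a6 window holds no match to any of the motifs. Searched from 250 bases before to 50 after the start, 40.7% of 32851 RefSeq promoter windows hold the C/EBP letters, 28.3% those of PU.1, 7.81% those of AP-1 and 13.6% the TATA box. Of the 10 genes 8 had a window. In this longer stretch S100a4 also matched PU.1 and S100a9 the TATA box, after the start. The other matches were in S100a11 (PU.1 and AP-1), Anxa2 (AP-1 and TATA box) and Anxa1 (C/EBP, PU.1 and TATA box), with none in Anxa5. A match is a run of letters and not a shown binding site.

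S100a4, which binds non-muscle myosin and is known from motile cells and fibroblasts, was lower in the Ly6C- F4/80high cells. It stood at 10.70, 10.65 and 10.73 in the Ly6C+ F4/80low cells of mice 1, 2 and 3, and at 10.12, 10.12 and 10.13 in their Ly6C- F4/80high cells. The subsets did not overlap, and the spread within each was far under the gap between them, at 0.040 and 0.0049 (SD, n = 3). The difference was -0.57 (SE 0.07, limma adjusted p = 0.000188), 1.49-fold lower.

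S100a6, or calcyclin, which binds the ubiquitin ligase adaptor encoded by Cacybp, followed S100a4. Its values were 10.14, 10.09 and 10.06 in the Ly6C+ F4/80low cells and 9.71, 9.60 and 9.62 in the Ly6C- F4/80high cells. Every Ly6C- F4/80high array was under every Ly6C+ F4/80low array, and the difference within a mouse was -0.44, -0.49 and -0.44. The fitted difference was -0.45 (SE 0.07, limma adjusted p = 0.00103). Markers of fibro-adipogenic cells and fibroblasts, which are known to express both genes, were lower too in 5 of 6 cases. Among all genes 14.3% were called lower and 19.5% higher. Summed on the linear scale the 6 markers gave 405 to 522 in the Ly6C+ F4/80low and 318 to 348 in the Ly6C- F4/80high arrays. Lum was under background on all arrays, and Pdgfra and Dcn on all Ly6C- F4/80high arrays. In Ly6C+ F4/80low cells Dcn stood at 6.79 in mouse 1 against 5.70 and 5.55 in mice 2 and 3. The subsets overlapped in Col3a1. Endothelial markers were lower in 3 and higher in 1 of 5 cases, with sums of 517 to 560.0 against 369 to 389 and Tek under background on all arrays. Some markers of other cell types were also lower. They were Flt3 and Cd209a of 6 dendritic cell markers (-0.67 and -1.19, with Itgax higher by 0.37) and Pax7 and Myog of 4 satellite cell markers. Flt3 and Myog were under background on all Ly6C- F4/80high arrays, so they were lower by at least 1.37-fold and 1.02-fold. Siglecf of 4 eosinophil markers was lower as well. The 6 T cell markers were split, with Cd3e at -0.45, Cd28 at 0.57 and overlapping linear sums, 267 to 304 against 287 to 303. Of 4 B cell markers Cd79b alone was called, higher by 0.53. The linear sums were 432 to 459 against 382 to 402 for the dendritic cell and 197 to 204 against 167 to 180.5 for the satellite cell markers. Fibroblasts, endothelial cells and satellite cells lack CD45, by which the cells had been separated. The part of any of these cells in the S100 results was not tested.

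The annexin partners S100a10 and S100a11 were lower by smaller amounts. S100a10, which has lost calcium binding in its family's usual sites and holds annexin A2 at the membrane as a docking point for plasminogen, stood at 11.62, 11.68 and 11.66 in the Ly6C+ F4/80low and at 11.39, 11.36 and 11.38 in the Ly6C- F4/80high cells. The subsets were separate and tight, and differed by -0.27 (SE 0.07, limma adjusted p = 0.0132). The call ended with a common median for the arrays (-0.20, adjusted p = 0.0586), and without both arrays of mouse 1, 2 or 3 (adjusted p = 0.0559, 0.0705 and 0.0962).

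S100a11, a partner of annexin A1 and annexin A2 in membrane repair, had the smallest difference of the called genes. It stood at 12.51, 12.54 and 12.50 in Ly6C+ F4/80low cells and at 12.28, 12.34 and 12.31 in the Ly6C- F4/80high cells. The arrays did not overlap, and the difference was -0.21 (SE 0.07, limma adjusted p = 0.0441). This call was not stable: it ended with the mouse as a replicate block (adjusted p = 0.0757), with a common median (-0.13, adjusted p = 0.184) and without any single array (adjusted p from 0.0588 to 0.121). A second probe set of S100a11 gave -0.25 (SE 0.07), in the same direction.

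S100a8 and S100a9 together form calprotectin, a protein of neutrophils and monocytes that withholds zinc and manganese from microbes and acts as a danger signal when released. Neither was far above background in either subset. S100a9 stood at 5.63, 5.78 and 5.93 in the Ly6C+ F4/80low cells, above the background of 5.43, and at 5.02, 5.26 and 4.96 in the Ly6C- F4/80high cells, where no array was above it. Its difference was -0.70 (SE 0.11, limma adjusted p = 0.000681). With the Ly6C- F4/80high arrays set to the background it was at least 1.27-fold lower there.

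S100a8 did not follow its partner. It read 5.80, 6.21 and 6.17 in the Ly6C+ F4/80low cells and 6.16, 6.50 and 6.41 in the Ly6C- F4/80high cells, all above background. The subsets overlapped, since mouse 1 was low in both, but in each mouse the Ly6C- F4/80high array was higher, by 0.36, 0.29 and 0.25. Without regard to the mouse the difference was 0.30 (SE 0.13, limma adjusted p = 0.0916), with a 95% interval of 0.02 to 0.58. With the mouse as a replicate block it was called (adjusted p = 0.0248), as it was with a common median (0.38, adjusted p = 0.0364). Leaving out mouse 1 among the Ly6C+ F4/80low arrays gave 0.17 (adjusted p = 0.283).

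Neutrophils are the cells with the most calprotectin. Of 14 neutrophil markers Ly6g, Ngp, Ltf, Elane, Mpo, Cxcr2 and Retnlg were under background on all 6 arrays. The summed linear level of the 14 was 1889 to 1987 in the Ly6C+ F4/80low and 2069 to 2150.5 in the Ly6C- F4/80high arrays. Mmp8 alone carried that order: without it the sum of the other 13 was 1375 to 1486 against 1207 to 1282, and the mean log2 level of all 14 was 5.99 to 6.12 against 5.77 to 5.90. Of the 14 markers Ly6g, Cxcr2 and Lcn2 were called lower in Ly6C- F4/80high cells, Lcn2 by -1.78, and Mmp8 was called higher by 0.73. The shares over all genes were 14.3% called lower and 19.5% called higher. The part of neutrophils in the values of S100a8 and S100a9 was not tested.

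The annexins went the other way, led by Anxa3. Anxa3, an annexin known from neutrophil granules and vessel growth, stood at 8.70, 8.74 and 8.69 in the Ly6C+ F4/80low and at 9.74, 9.66 and 9.64 in the Ly6C- F4/80high cells. The gap was many times the spread within a subset, 0.025 and 0.054 (SD, n = 3). The difference was 0.97 (SE 0.07, limma adjusted p = 8.15e-06), 1.96-fold higher, and it was rank 413 among all 19938 genes toward the Ly6C- F4/80high cells.

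Anxa1, the annexin induced by glucocorticoids that restrains leukocyte entry and promotes the uptake of dying neutrophils, was also higher. Its values were 9.82, 9.99 and 9.76 in the Ly6C+ F4/80low cells and 10.56, 10.55 and 10.68 in the Ly6C- F4/80high cells. The arrays did not overlap, and the difference within a mouse ranged from 0.56 in mouse 2 to 0.92 in mouse 3. The fitted difference was 0.74 (SE 0.09, limma adjusted p = 0.000131), 1.67-fold higher.

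Anxa5, whose protein is used to stain the phosphatidylserine of dying cells, was higher by less. It stood at 11.41, 11.60 and 11.62 in the Ly6C+ F4/80low and at 11.87, 11.98 and 11.89 in the Ly6C- F4/80high cells. The Ly6C+ F4/80low array of mouse 1 was the lowest, and the subsets were separate. The difference was 0.37 (SE 0.08, limma adjusted p = 0.00684).

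Anxa2, the binding partner of S100A10 and a cofactor of plasmin formation at the cell surface, was not called. Its values were 10.98, 10.98 and 11.09 in the Ly6C+ F4/80low cells and 11.05, 11.12 and 11.05 in the Ly6C- F4/80high cells. The subsets overlapped, and mouse 3 went down where mice 1 and 2 went up. The difference was 0.06 (SE 0.07, limma adjusted p = 0.544), and its 95% interval of -0.10 to 0.23 leaves room for a small shift either way.

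Genes whose proteins pair were next compared within each array, where a shift of the whole array cancels. The log2 ratio has no meaning as a level, since the probe sets differ, but its change between subsets shows unequal shifts. S100a9 was not above background in Ly6C- F4/80high cells, so its ratio to S100a8 has only a bound there. In Ly6C+ F4/80low cells it was -0.28 ± 0.13 (SD, n = 3). With S100a9 set to the background it was -0.92 ± 0.18 in Ly6C- F4/80high cells, lower by at least 0.65. The ratio of Anxa2 to its partner S100a10 changed by 0.34, from -0.64 ± 0.06 to -0.30 ± 0.05. That of Anxa1 to S100a11 changed by 0.95, from -2.66 ± 0.10 to -1.71 ± 0.08. In all 3 pairs, that of S100a9 taken at its bound, no array of a subset overlapped the other subset. The two-sided exact permutation test of the measured ratios gave p = 0.10 for each, the smallest that 3 arrays against 3 allow (adjusted p = 0.10 over the 3 pairs).

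**Figure D2:**
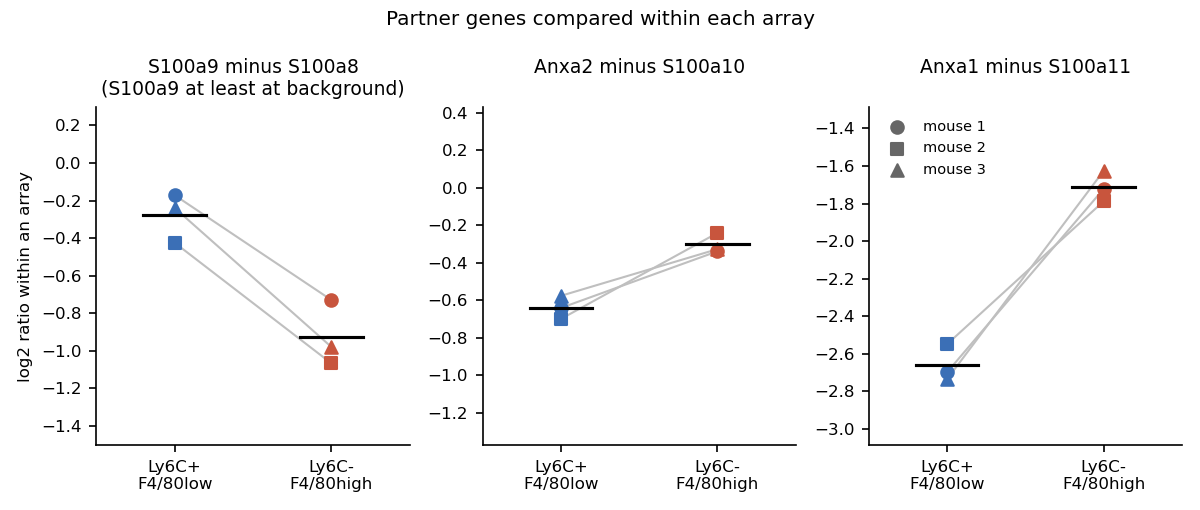
Log2 ratio of the first to the second gene of a pair within each array, Ly6C+ F4/80low in blue and Ly6C- F4/80high in red, with a marker shape for each mouse and a black bar at the subset mean. In the first panel S100a9 is drawn at the background where it was lower, so the red points are upper limits and the mean fell by at least 0.65 on these arrays. That bound concerns the floor of S100a9 alone and not the spread between arrays. The ratio rises by 0.34 for Anxa2 to S100a10 and by 0.95 for Anxa1 to S100a11, with no overlap of the subsets in any panel.

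Further genes of each family were read in the same fit. Among 8 annexins, whose median was 0.19, 4 were called higher and 1 lower, against 19.5% and 14.3% of all genes, and 3 of the 8 were under background on all arrays. With a gene's probe sets averaged, 3 were called higher. Anxa4, an annexin known from epithelia, was higher by 0.88 (SE 0.08, limma adjusted p = 2.1e-05), from 9.67, 9.69 and 9.67 to 10.60, 10.61 and 10.46 in mice 1, 2 and 3. Anxa7, which fuses membranes in calcium, was higher by 0.46 (SE 0.08) and Anxa9 by 0.37 (SE 0.10). The call of Anxa9 was lost without mouse 1 (0.26, adjusted p = 0.0919). Anxa6, with a doubled annexin core, was higher by 0.41 (SE 0.08) on its brighter probe set, but its second probe set gave -0.27 (SE 0.08), so its direction is uncertain. Anxa11, known from RNA granule transport, went against the family at -0.39 (SE 0.10, limma adjusted p = 0.0152). That value leaned on mouse 3, without whose arrays it was -0.24 (adjusted p = 0.164). Leaving out only its Ly6C+ F4/80low array gave -0.31 (adjusted p = 0.0569), and only its Ly6C- F4/80high array -0.32 (adjusted p = 0.0636). Anxa8, Anxa10 and Anxa13 were under background on all arrays.

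Most of the further S100 genes were weak. Of 10 with a median of -0.08, 1 was called higher and 2 lower, in all 30% called against 33.8% of all genes. S100a2, not among the 10, was under background on all arrays and differed by -0.09 (SE 0.08). S100a1, best known from heart and skeletal muscle, was the exception: it stood at 8.74, 8.69 and 8.80 in the Ly6C+ F4/80low and at 9.47, 9.57 and 9.50 in the Ly6C- F4/80high cells. The subsets were separate and the difference was 0.78 (SE 0.07, limma adjusted p = 4.1e-05). Of 5 muscle fibre markers 0 were called by limma (0 of 5 also at an unadjusted p under 0.05), with Myh4 and Mylpf under background on all arrays. Their linear sums were 351 to 353 in the Ly6C+ F4/80low and 338 to 362 in the Ly6C- F4/80high arrays. The part of muscle fibre RNA in the S100a1 values was not tested. S100a5 and S100a14, both called lower, were under background on all arrays, as were S100a3 and S100z. The calls of S100a5 (adjusted p = 0.0684) and S100a14 (adjusted p = 0.23) ended with quantile normalization. That of S100a5 also ended without mouse 3 (-0.28, adjusted p = 0.107). That of S100a14 ended with the mouse as a replicate block (adjusted p = 0.0717) and without any array but the Ly6C- F4/80high one of mouse 1 (adjusted p from 0.0601 to 0.128). S100a7a, S100a13, S100a16, S100b and S100g had differences of -0.12, -0.02, -0.18, 0.09 and 0.03, none of them called.

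**Figure D3:**
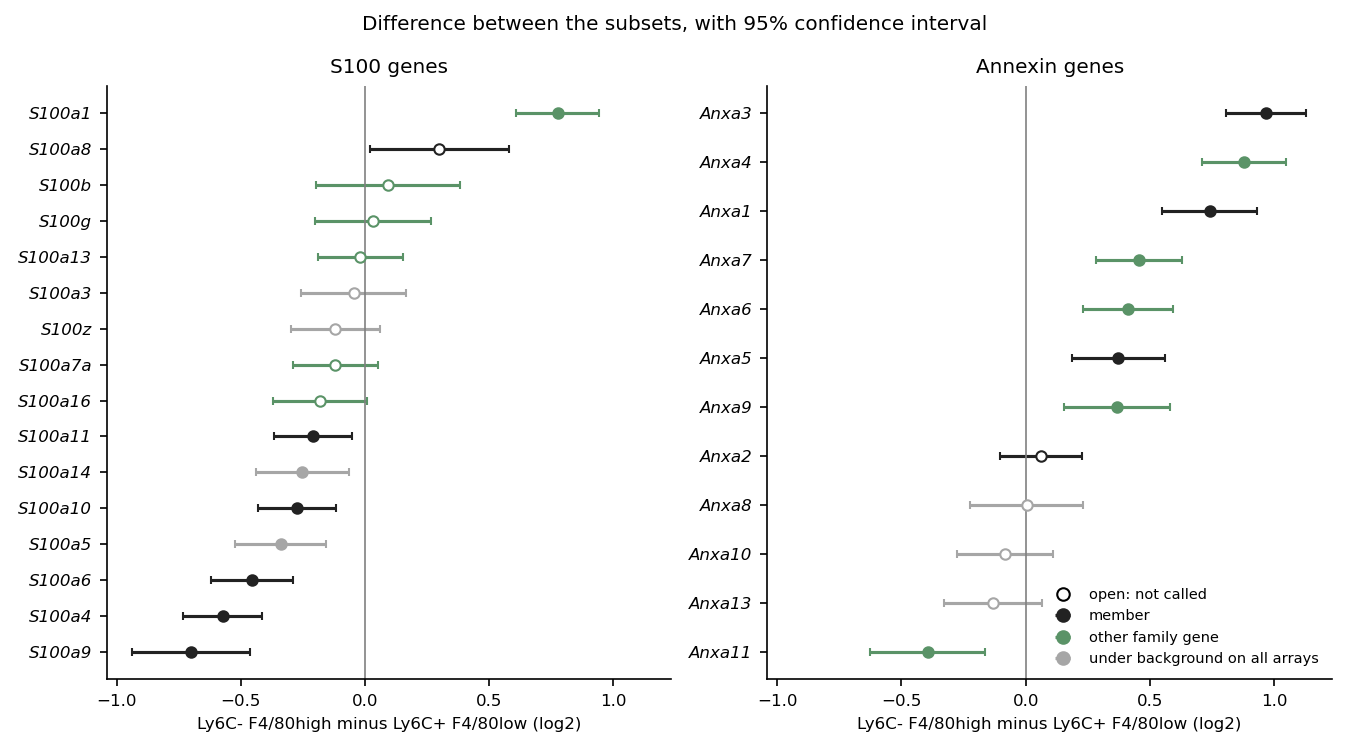
Difference between the subsets for the S100 genes (left) and annexin genes (right), with 95% confidence intervals from limma on the log2 axis. Black marks the 10 genes, green the other family genes and grey those under background on all arrays, and open circles were not called. The 5 filled black S100 points lie to the left of 0 and the 3 filled black annexin points to the right, from -0.70 for S100a9 to 0.97 for Anxa3.

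Most S100 genes lie side by side on chromosome 3, and differences of both signs occurred along the run. In the order of RefSeq, S100a1, S100a13, S100a14, S100a16, S100a3, S100a2, S100a4, S100a5, S100a6, S100a7a, S100a8 and S100a9 follow each other with no other protein-coding gene between them. The run opened with S100a1 at 0.78, next to S100a13 at -0.02. S100a4 and S100a6 at -0.57 and -0.45 had S100a5, under background, between them. At the far end S100a8 at 0.30 and S100a9 at -0.70 were neighbours with opposite signs. S100a11 and S100a10, a separate pair beyond 56 protein-coding genes, were alike at -0.21 and -0.27.

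**Figure D4:**
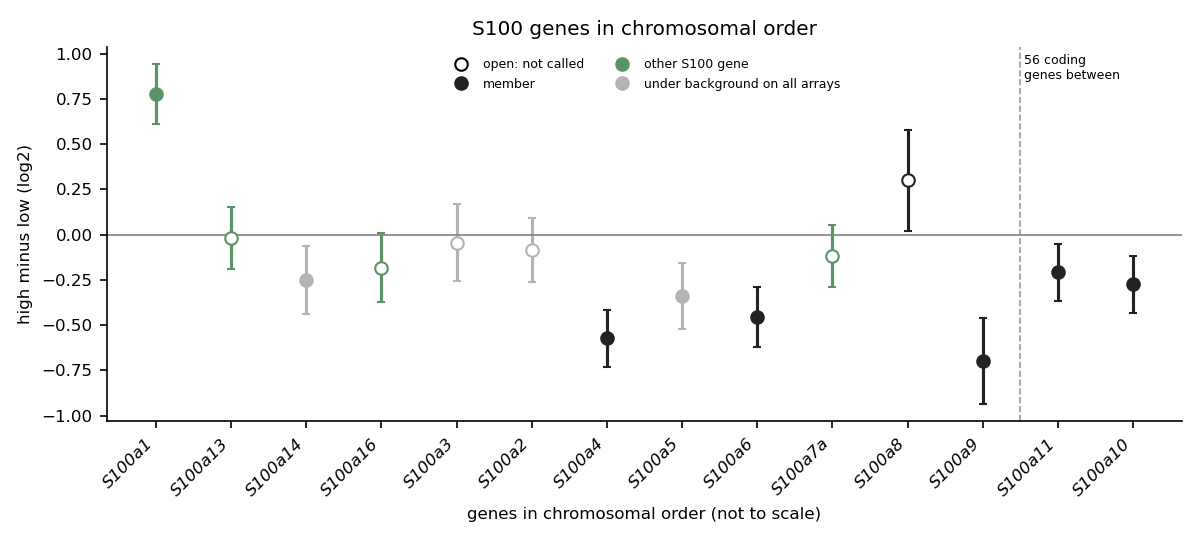
Differences of the measured S100 genes in chromosomal order (equal steps, not to scale), with 95% confidence intervals on the log2 axis. Black marks members of the 10 genes, green other S100 genes and grey genes under background on all arrays, and open circles were not called. The run starts at 0.78 with S100a1 and ends at -0.70 with S100a9, next to S100a8 at 0.30.

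Genes that receive or act with these proteins were read from 8 further lists. Of the receptors and signalling genes of calprotectin and annexin A1, 2 of 6 measured were lower and 4 not called (median -0.16), and these 33.3% are near the 33.8% called among all genes. Myd88, the adaptor behind the calprotectin receptor TLR4, differed by -0.45 (SE 0.09, limma adjusted p = 0.00305) and the co-receptor gene Cd14 by -0.42 (SE 0.08). Tlr4 itself differed by -0.02 (SE 0.08). The formyl peptide receptors that bind annexin A1 had no probe set of their own and are not analysed here.

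Plasminogen activation at the cell surface, the process that annexin A2 and S100A10 serve, had 5 of 6 measured genes called, 3 lower and 2 higher (median -0.38), against 33.8% of all genes called. Serpinb2, an inhibitor of the plasminogen activators, differed by -1.26 (SE 0.11, limma adjusted p = 1.66e-05) and Plaur, the urokinase receptor gene, by -0.74 (SE 0.10). Plgrkt, a plasminogen receptor, was higher by 0.54 (SE 0.07) and the urokinase gene Plau by 0.33 (SE 0.11). The call of Plau ended with quantile normalization (0.29, adjusted p = 0.0781). Of the Ly6C- F4/80high arrays, leaving out mouse 1 (0.25, adjusted p = 0.144) or mouse 3 (0.33, adjusted p = 0.0967) ended it too. So did leaving out mouse 2 (0.25, adjusted p = 0.126) or mouse 3 (0.32, adjusted p = 0.0963) among the Ly6C+ F4/80low arrays.

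Among 16 plasma membrane repair genes (median 0.15) 7 were called higher and 4 lower, against 19.5% and 14.3% of all genes. The count moved with the setting. With quantile or cyclic loess normalization 5 were called higher, and with the mouse as a replicate block 6, with 4 lower in each. A common median gave 9 higher and 3 lower. Smpd1, the acid sphingomyelinase gene, rose most at 1.47 (SE 0.08, limma adjusted p = 1.23e-06), from 7.35, 7.38 and 7.27 to 8.91, 8.71 and 8.80. Myof, a relative of the repair protein dysferlin, was higher by 0.96 (SE 0.08). The membrane-shaping ATPase genes Ehd2 and Ehd1 differed by -0.96 (SE 0.13) and -0.67 (SE 0.08). Of 6 cytosolic targets of S100 proteins 33.3% were called, near the share of all genes. Cacybp, the partner of S100A6, was higher by 0.35 (SE 0.07) while S100a6 was lower, and Sugt1, a co-chaperone gene, by 0.34 (SE 0.07), a call lost without mouse 3 (0.33, adjusted p = 0.0527). The S100A4 target Myh9 differed by -0.03 (SE 0.07).

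Annexin A1 is known to restrain phospholipase A2. Of 4 measured genes of that enzyme and of eicosanoid synthesis 2 were lower and 1 higher (median -0.22), 75% called against 33.8% of all genes. Ptgs2, the inducible cyclooxygenase gene, differed by -0.54 (SE 0.09, limma adjusted p = 0.001) and the lipoxygenase gene Alox5 by 0.41 (SE 0.10), a call lost without mouse 1 (0.32, adjusted p = 0.0963). Pla2g4a, the cytosolic phospholipase A2 gene, differed by -0.28 (SE 0.09), which was not called with the mouse as a replicate block (adjusted p = 0.0597). Nor was it called without any single array but the Ly6C+ F4/80low one of mouse 3 (adjusted p from 0.063 to 0.128).

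Phosphatidylserine, the lipid that annexin A5 binds, is moved and read by the next list, whose median was 0.18, with 4 of 9 measured genes called higher and 1 lower, against 19.5% and 14.3% of all genes. The bridging protein genes Gas6 and Mfge8 led it, at 2.36 (SE 0.09) and 1.90 (SE 0.10). Atp8a1, a flippase gene, differed by -0.24 (SE 0.08), and its call was lost under the same block (adjusted p = 0.0597) and without any single array but the Ly6C+ F4/80low one of mouse 2 (adjusted p from 0.0659 to 0.123).

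Metal withholding, the role of calprotectin outside cells, had 3 of 6 measured genes lower and 2 higher (median -0.18), where 14.3% of all genes were lower and 19.5% higher. The siderophore-binding Lcn2 differed by -1.78 (SE 0.14, limma adjusted p = 9.9e-06) and the metal importer gene Slc39a14 by -1.09 (SE 0.12). The zinc importer gene Slc39a8 was higher by 1.25 (SE 0.09) and the metallothionein gene Mt2 by 0.41 (SE 0.11). The call of Mt2 was lost without mouse 1 (0.35, adjusted p = 0.0625) or mouse 2 (0.37, adjusted p = 0.0553) among the Ly6C+ F4/80low arrays, and without mouse 3 among the Ly6C- F4/80high arrays (0.32, adjusted p = 0.071).

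Of 6 factors known at the S100a8 and S100a9 promoters 3 were called lower and 1 higher (median -0.41), 66.7% called against 33.8% of all genes. The C/EBP genes were split: Cebpd differed by -0.84 (SE 0.08, limma adjusted p = 5.3e-05) and Cebpb by -0.67 (SE 0.10), whereas Cebpa was higher by 0.82 (SE 0.12). Spi1, which encodes PU.1, differed by -0.02 (SE 0.07).

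**Figure D5:**
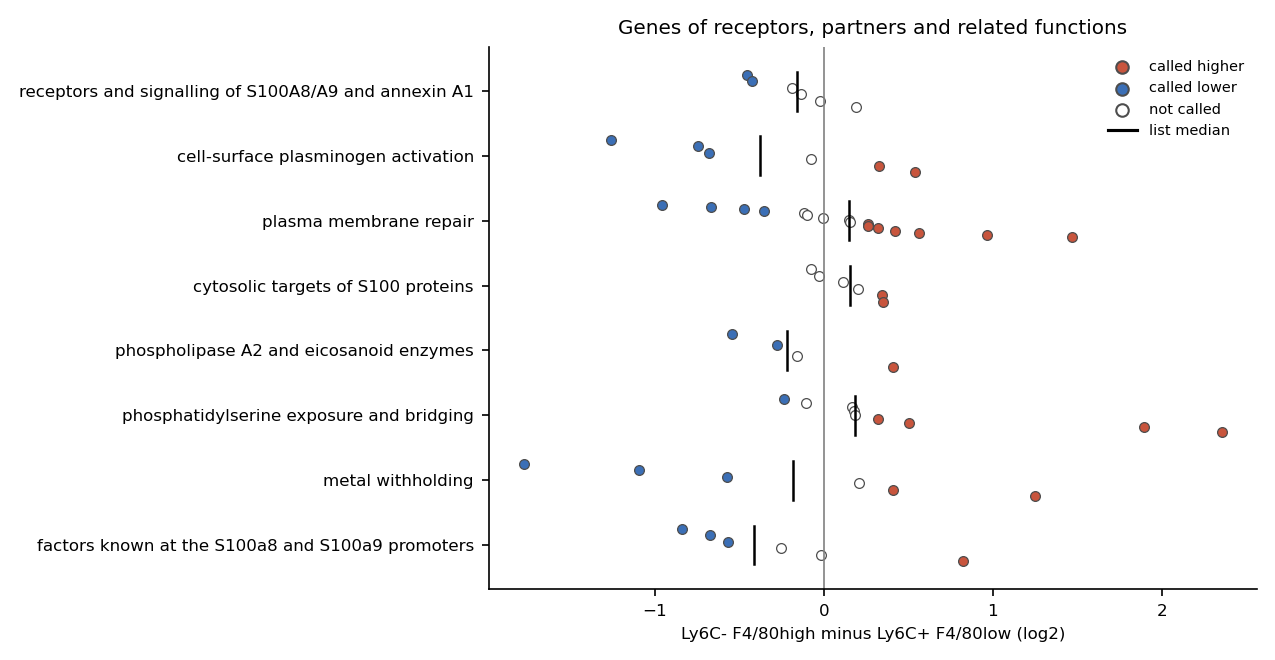
Difference of each measured gene of 8 lists on the log2 axis, with red for genes called higher and blue for genes called lower in the Ly6C- F4/80high cells, white for genes not called and a black bar at the list median. The medians run from -0.41 for the promoter factors to 0.18 for the phosphatidylserine genes, and each list but 2 holds genes called in both directions.

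For each of the 10 genes the 3 genes of most similar pattern were taken from 11674 named genes with means above background. Likeness was the root mean square distance over the 6 arrays after each gene was centred on its mean, in log2 units, and the closest gene lay between 0.011 and 0.062 away. Ttc19, Diaph1 and Csrnp1 were closest to S100a4, and Pid1, Jazf1 and Ino80 to S100a6. The closest to S100a8 were Eea1, Aph1b and Sar1b, and to S100a9 Nab2, Abtb2 and Cenpa. Syne3, Galnt11 and Zfp622 were closest to S100a10, and Sncb, Abhd1 and Dusp11 to S100a11. Among the annexins Sgo2a, Ugp2 and Ercc6l2 were closest to Anxa1 and Zxdc, Zfp606 and Bptf to Anxa2. Slc25a10, Adk and Creg1 were closest to Anxa3, and Cct7, App and Cmas to Anxa5. None of the 10 genes was among the 3 closest of another, but S100a9, whose mean was under background, was not among the candidates.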

How the data were processed

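Per the labels' protocols, 150 ng of RNA from each of 6 sorted samples was amplified, labelled and hybridised to an Affymetrix array. The authors deposited log2 expression values made with RMA, per the submitters' processing notes. Software and settings are not stated in these sources, and that the scale is log2 follows from the range of the values, 1.20 to 13.5. RMA shrinks differences of weak genes. Read depth does not apply to arrays, whose number limits the precision. In the platform annotation 21789 of 35556 probe sets had 1 symbol, 1621 several and 12146 none. The Entrez identifiers of 21698 were found in the RefSeq table of GRCm38.p6, and 0 symbols changed. The probe set of highest mean stood for each of 19938 genes.

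All genes were fitted together with limma (version 3.58.1, R 4.3.3, lmFit and eBayes), two-sided, with Benjamini-Hochberg adjustment. Because the labels give the mouse of each sample, the mouse number pairs the arrays; the correlations of paired deviations across genes were 0.03, -0.08 and 0.09. The unpaired fit is reported unless the block is named. Tested on simulated data, with 200 changed genes of 19938, the fit found 59.7% of changes of 0.5, 92.5% of changes of 1 and 100% of changes of 2. Of 176 calls 8 were false. In the data 6748 genes were called, far more than the 200 changed in the simulation, so these rates need not hold there. Named were the 10 genes, the further S100 genes and annexins, and from each other list up to 4 called genes, by size and where possible 2 per direction. Tlr4, Myh9, Spi1, S100a2 and the markers given with differences were added after their values were seen. The 10 genes and all lists were chosen with earlier results of these data known.

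Alternatives were the mouse as a block or random effect, quantile or cyclic loess normalization, a common median, leaving out genes under the lowest 25%, 50% or the background, averaging or separately testing probe sets, a trended robust prior, array weights, and dropping single arrays or mice.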

Additional observations from a re-analysis of the deposited data

How the results depend on the processing

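Across 208 refits of the 10 differences under the alternatives, 190 kept their direction and side of the threshold, 16 lost a call, 2 gained one and 0 turned sign. The losses were those of S100a11 (12) and S100a10 (4) and the gains those of S100a8. S100a4, S100a6, S100a9, Anxa1, Anxa3 and Anxa5 stayed called wherever they were tested; the 50% filter and the filter at the background left S100a9 out. Anxa2 was not called in any (0.01 to 0.14). Under the replicate block by mouse 8 of the 10 genes were again called, S100a8 in place of S100a11, and 6164 of all genes, and the block ended no other call of the 10. Leaving out arrays or mice gave 6 to 7 called genes of the 10 and 3998 to 6887 of all genes, the lowest without mouse 3, against 6748. The ratios of Anxa2 to S100a10 and of Anxa1 to S100a11 kept their direction in every refit that computed them. The filters, the random effect, the trended robust prior and the array weights had no ratio. With the mouse as a block, an exact test that flips the sign of each mouse's difference gave p = 0.25 for both ratios, the smallest that 3 mice allow. S100a8 and S100a9 lie near background, where RMA compresses differences and 3 arrays per subset give little resolution.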
